A study of Homo sapiens with 12 samples.

Results

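The EGFR family genes described here are 3 receptors (EGFR, ERBB2 and ERBB3) and 5 ligands (AREG, EREG, HBEGF, TGFA and NRG1). These 8 genes were taken by their symbols from the 3 comparison tables of the study, where each of them had a row in every table, out of 18534 genes in the SAHA table, 27126 in that of compound 1 and 15255 in that of a6. The study used MDA-MB-231, an established human breast cancer line of the triple-negative kind, and measured total RNA by sequencing. Cells of the control group (Ctrl) received DMSO, and the other groups received 2.5 µM of SAHA, of compound 1 or of a6, all for 48 h, with 3 libraries in each of the 4 groups. SAHA (vorinostat) inhibits histone deacetylases (HDACs); SAHA and compound 1 are described by the submitters as having a single target, and a6 as having both HDACs and G-quadruplexes (G4s), folds of guanine-rich nucleic acid. All groups share the one cell line, so nothing here speaks for other breast cancer cells.

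The EGFR family are receptor tyrosine kinases of the cell surface that act in pairs. Most of their ligands are made as membrane-anchored precursors and are cut loose by metalloproteases, after which they bind a receptor and start the RAS-MAPK and PI3K-AKT cascades. AREG, EREG, HBEGF and TGFA bind EGFR, NRG1 binds ERBB3 and ERBB4, and ERBB2 has no known ligand of its own and serves as a partner for the others. Triple-negative tumours lack the oestrogen and progesterone receptors and overexpressed ERBB2, and many of them, MDA-MB-231 included, express EGFR.

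The tables hold 1 mean normalized read count per gene and comparison, over Ctrl and compound libraries together, and no value per library. Depth per library is therefore unknown here, and a group's level is a mean of 3 libraries computed from the authors' deposited table with no spread of its own. The error of each change is the deposited standard error (SE) of the log2 fold change, and the test is the authors' DESeq2 Wald test at a Benjamini-Hochberg adjusted p under 0.05. The sample titles number the libraries as biological replicates without naming separate cultures. The p-values thus measure only how these libraries vary, which may in part be technical. The line's identity was checked on its markers. VIM, CD44, AXL, CAV1 and S100A4, taken as markers of the line, averaged 3480 normalized counts or more in every table, and none of them passed the test. ESR1, PGR and FOXA1 had no row in the SAHA and a6 tables. With compound 1 only FOXA1 had none, and PGR averaged 0.317 normalized counts. KRT19, an epithelial marker, was abundant, with a mean of 9950, 6470 and 6760 in the comparisons with SAHA, compound 1 and a6. ERBB3, listed for the check as low or not measured, averaged 247, 173 and 184. GATA3 and EPCAM, listed likewise, are not given here.

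The promoters of these genes are shown because a6 has G4s as one of its targets, and they were chosen for printing with the values known. The 250 bases before each RefSeq start (GRCh38.p14) were searched on both strands for 4 runs of at least 3 G separated by 1 to 7 bases, a letter pattern that allows a G4. Windows of 6 of the 8 members were used, and ERBB3 and NRG1 were not used here. These 6 members had 8 windows. The pattern was found for HBEGF, EGFR and TGFA, while a further window of EGFR and a further one of TGFA lacked it. Counted by window, 23.5% of the 35116 promoter windows of the genome hold it. In the lines that follow, each sequence reads 5′ to 3′ along the gene's strand with 12 bases on either side where the window allows, and capitals mark the stretch that holds the pattern. The EGFR stretch and the second TGFA stretch carry it on the opposite strand and so show runs of C.
HBEGF, chr5:140346652-140346701, minus strand: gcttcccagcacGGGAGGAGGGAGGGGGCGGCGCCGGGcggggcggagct
EGFR, chr7:55018958-55019007, plus strand: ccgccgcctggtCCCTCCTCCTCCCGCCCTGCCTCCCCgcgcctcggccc
TGFA, chr2:70554003-70554043, minus strand: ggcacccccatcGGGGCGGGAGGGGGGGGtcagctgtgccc
TGFA, chr2:70554039-70554076, minus strand: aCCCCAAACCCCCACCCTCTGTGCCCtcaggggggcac
The HBEGF pattern lies 86 to 61 bases before the start and the EGFR pattern 47 to 22 bases before it. A match is a description of letters; no measurement here shows that any of these stretches folds or binds a compound.

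AREG and EREG are neighbours on chromosome 4, on the same strand, with 56.4 kb between the end of EREG and the start of AREG. Their promoters hold no such G pattern and are shown for another shared feature, a TATAAA box, which 10.7% of the windows hold on either strand. It lies 32 to 27 bases before the EREG start and 29 to 24 bases before the AREG start, and one of the EGFR windows holds it too. AREG also holds TGACGTCA, the cyclic AMP response element, 65 to 58 bases before its start, a motif in 1.65% of windows. The bases from 80 before the start up to it are printed, with these motifs in capitals.
EREG, chr4:74365065-74365144, plus strand: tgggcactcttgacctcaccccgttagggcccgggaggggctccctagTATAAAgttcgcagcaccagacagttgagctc
AREG, chr4:74445056-74445135, plus strand: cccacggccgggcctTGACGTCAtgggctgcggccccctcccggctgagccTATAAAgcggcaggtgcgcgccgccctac

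Per kilobase of transcript, AREG was the most abundant of the 8 in control cells. Levels between genes are compared here as Ctrl normalized counts, computed from the authors' deposited SAHA table, per kb of the median coding transcript in GENCODE 29. AREG stood at 1618 per kb, followed by TGFA at 868, EGFR at 681, HBEGF at 488, ERBB2 at 484, NRG1 at 188, ERBB3 at 57.4 and EREG at 34.2. AREG also came first, and NRG1 sixth, when the length was the union of all exons, which gives 1433 per kb for AREG. The ranks between them moved with that choice, since TGFA then stood at 178, EGFR at 231 and ERBB2 at 371 per kb. The order among TGFA, EGFR, HBEGF and ERBB2 thus depends on the length assumed, and the spread between libraries behind the order is unknown here. AREG had the largest SE of the 8 for its log2 fold change, at 0.44, 0.96 and 0.71 with SAHA, compound 1 and a6. EGFR and ERBB2 stood above ERBB3, the third receptor, under either length.

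**Figure D1:**
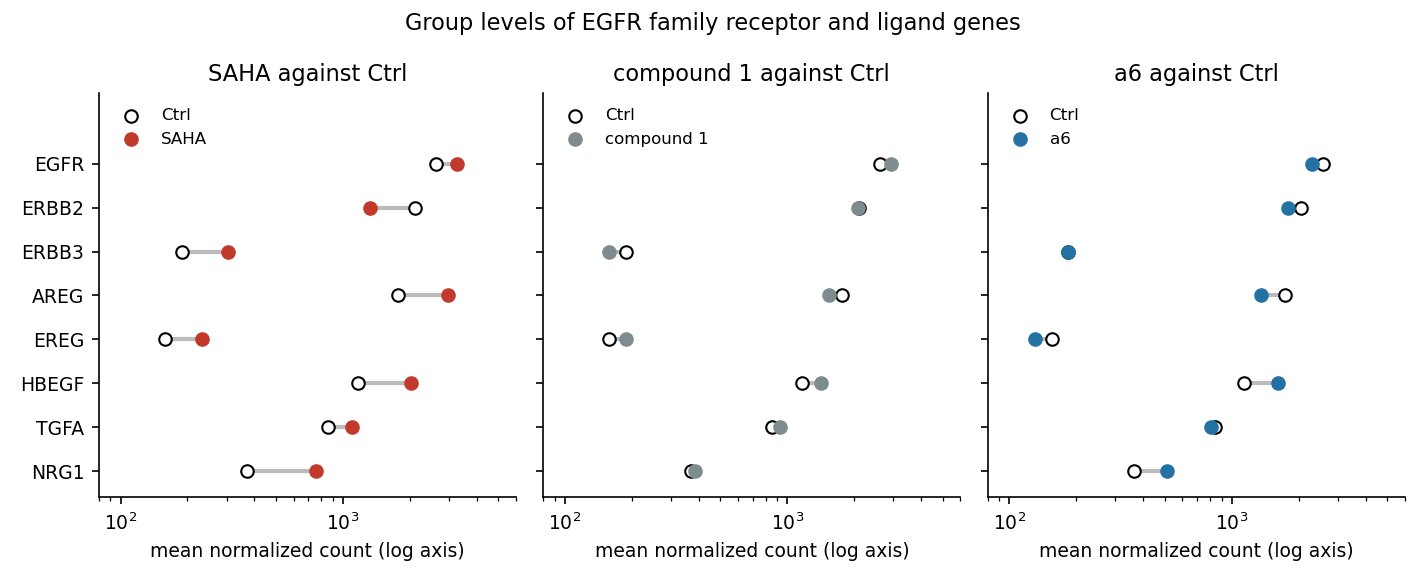
Mean normalized count (log axis) of the 8 genes in Ctrl (open) and with each compound (filled), computed table by table from the deposited means and fold changes. With SAHA every ligand lies to the right of its Ctrl point and ERBB2 to the left; with compound 1 and a6 most pairs nearly overlap.

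SAHA raised 2 of the 8 genes, both ligands: NRG1 and HBEGF. None was lowered. Of all genes tested against SAHA, 4.53% were raised, 3.02% lowered and 7.55% changed in either direction at the same threshold. All 8 members averaged 50 normalized counts or more, and 3.63% of the genes at or above that level were raised. The median log2 fold change was 0.75 over the 5 ligands and 0.62 over all 8 genes, against -0.01 over all genes tested, and all 5 ligands were above 0. These medians describe the list and are not a test of it. In bulk RNA, a change in the share of cells that make a transcript and a change in the amount per cell cannot be told apart.

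NRG1 encodes neuregulin 1, the ligand of ERBB3 and ERBB4, and lies on chromosome 8 from 31639386 to 32767959 on GRCh38. Its level, computed from the authors' deposited table, was 370 normalized counts in Ctrl and 761 with SAHA. In the authors' deposited table its log2 fold change was 1.04 with an SE of 0.26 and an adjusted p of 0.00204, a 2.06-fold rise with a 95% interval of 1.45 to 2.92. Of the 2689 genes of like level, whose mean count lay within 1.5 times that of NRG1, 98.7% had a lower log2 fold change. NRG1 was the only member in the deposited lists of G4-related changed genes, and also the only one higher by at least 2-fold at an unadjusted p under 0.05 with SAHA. Of the 1327 genes within those limits, 535 (40.3%) are named in the G4-related list for SAHA. That list has 723 entries, more than these 535, so not every entry was matched to a gene within the limits. NRG1 stands there with 20 G4s, where the median of 723 entries was 2 and 10 had more. NRG1 is also long: it spans 1129 kb, against a median of 34.8 kb over the 677 listed genes with a position, of which 4 are longer. The sources used here do not say in which region these G4s were counted.

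HBEGF encodes heparin-binding EGF-like growth factor, a membrane-anchored ligand of EGFR and ERBB4, and lies on chromosome 5 from 140332843 to 140346631. Its level was 1164 in Ctrl and 2028 with SAHA, computed from the authors' deposited table. For HBEGF the authors' deposited table gave a log2 fold change of 0.80 with an SE of 0.26 and an adjusted p of 0.0306, which is 1.74-fold with an interval of 1.23 to 2.47. HBEGF passed at an adjusted p under 0.05 and not at one under 0.01, and 98.0% of genes of like level had a lower log2 fold change.

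The other 3 ligands were above 0 with SAHA and did not pass. AREG, amphiregulin, stood at 1776 in Ctrl and 2984 with SAHA, and in the authors' deposited table at a log2 fold change of 0.75 with an SE of 0.44 (adjusted p = 0.377). EREG, epiregulin, stood at 158 and 232, with 0.55 and an SE of 0.31 in the authors' deposited table (adjusted p = 0.346). TGFA, transforming growth factor alpha, stood at 855 and 1094, with 0.36 and an SE of 0.26 in the authors' deposited table (adjusted p = 0.519). The point estimate of AREG was close to that of HBEGF, and what separates their calls is the SE. The 95% interval for AREG ran from 0.93-fold to 3.05-fold, so a rise as large as that of NRG1 cannot be told from no change. AREG lies from 74445134 to 74455009 and EREG from 74365143 to 74388751 on chromosome 4, and TGFA from 70447280 to 70554193 on chromosome 2.

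No receptor passed with SAHA, and the 3 receptors did not share a direction. ERBB2, the partner receptor, was lower: 2103 in Ctrl and 1328 with SAHA, with a log2 fold change of -0.66 and an SE of 0.26 in the authors' deposited table (unadjusted p = 0.0111, adjusted p = 0.107). It is the only one of the 8 genes below 0 in this comparison. ERBB3, the receptor of NRG1 with a weak kinase, stood at 189 and 305, with 0.69 and an SE of 0.34 in the authors' deposited table (unadjusted p = 0.0426, adjusted p = 0.246). EGFR stood at 2616 and 3272, with 0.32 and an SE of 0.33 in the authors' deposited table (adjusted p = 0.701). Its 95% interval ran from 0.80-fold to 1.97-fold. At an unadjusted p under 0.05, which 18.4% of all genes reach with SAHA (10.2% as higher), 4 of the 8 members passed, 3 of them higher. EGFR lies on chromosome 7 from 55019021 to 55211628, ERBB2 on chromosome 17 from 39687914 to 39730426 and ERBB3 on chromosome 12 from 56076799 to 56103505, all protein-coding genes of the plus strand.

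Antisense and overlapping genes touch the loci of all 3 receptors in GENCODE 29, and the sources used here do not say whether reads were counted by strand, so reads of overlapping genes cannot be told apart. EGFR-AS1 overlaps EGFR exons on the opposite strand; in the authors' deposited table it averaged 142 normalized counts, with a log2 fold change of -0.07 with an SE of 0.38 with SAHA. PGAP3 overlaps ERBB2 exons on the opposite strand and averaged 110 normalized counts, at -0.51 with an SE of 0.38 in the authors' deposited table for SAHA. AC034102.2 overlaps ERBB3 on the same strand and has no row in the 3 tables. EGFR-AS1 and PGAP3 thus had far lower mean counts than the receptors beside them.

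**Figure D2:**
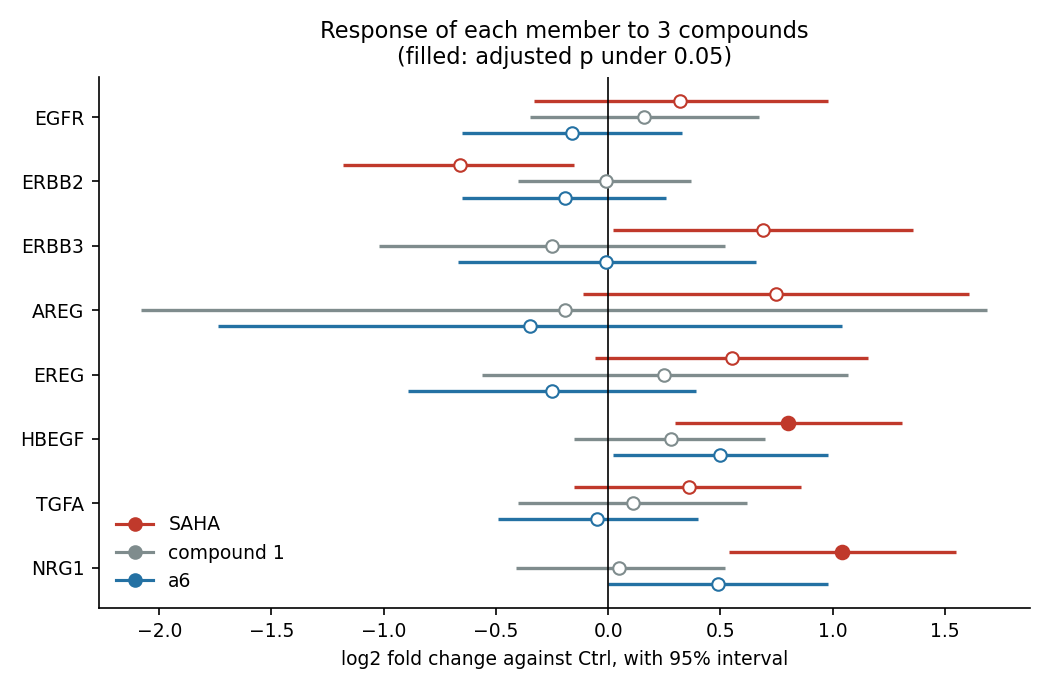
Log2 fold change against Ctrl with its 95% interval for each gene, in red for SAHA, grey for compound 1 and blue for a6; filled points have an adjusted p under 0.05. Only HBEGF and NRG1 with SAHA are filled, and the AREG intervals with compound 1 and a6 are the widest on the plot.

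With compound 1, none of the 8 genes passed, as was the case for every one of the 27126 genes tested against it (0.0% called). An unadjusted p under 0.05 was reached by 54 genes, 0.199% in either direction and 0.107% higher, and no member was among them. With accurate errors a share near 0.05 of unchanged genes would reach it, so the p-values with compound 1 run larger than their nominal level. The lack of calls is therefore weak evidence of no change. The same SEs enter the differences between compound 1 and the other compounds given below. The cause was not tested. The median log2 fold change was 0.08 over the 8 genes and 0.01 over all genes. HBEGF was the highest member, at 1164 in Ctrl and 1411 with compound 1, with a log2 fold change of 0.28 and an SE of 0.22 in the authors' deposited table (adjusted p = 1.0). NRG1 stood at 370 and 384, with 0.05 and an SE of 0.24 in the authors' deposited table (adjusted p = 1.0), with an interval of 0.75-fold to 1.44-fold that leaves out a 2-fold rise. EGFR, TGFA and EREG were at 0.16, 0.11 and 0.25 in the authors' deposited table. ERBB2, ERBB3 and AREG were at -0.01, -0.25 and -0.19 in the same deposited table of the authors.

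ERBB2 was the most precisely measured of them with compound 1. It stood at 2098 in Ctrl and 2079 with the compound, and in the authors' deposited table its SE was 0.20, so the interval ran from 0.76-fold to 1.29-fold. For ERBB2, a change of 1.5-fold in either direction lies outside that interval. No such bound can be set for AREG, whose interval with compound 1 ran from 0.24-fold to 3.23-fold.

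With a6, none of the 8 genes passed either; of all 15255 genes, 0.583% were called in either direction, 0.243% as raised and 0.341% as lowered. NRG1 and HBEGF were the highest members, as with SAHA. The median log2 fold change of the 8 genes was -0.11, against -0.03 over all genes, and the other 6 genes were below 0. HBEGF stood at 1139 in Ctrl and 1612 with a6, with a log2 fold change of 0.50 and an SE of 0.25 in the authors' deposited table (unadjusted p = 0.0421, adjusted p = 0.642). NRG1 stood at 362 and 509, with 0.49 and an SE of 0.25 in the authors' deposited table (unadjusted p = 0.048, adjusted p = 0.666). At an unadjusted p under 0.05, 7.41% of all genes passed with a6 in either direction and 3.06% as higher, beside these 2 members of 8. Among genes of like level 97.8% lay below HBEGF and 96.6% below NRG1. The comparisons with SAHA and with a6 share the Ctrl libraries.

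The receptors and the remaining ligands with a6 lay between -0.35 and -0.01 in the authors' deposited table. EGFR stood at 2561 in Ctrl and 2286 with a6, at -0.16 with an SE of 0.25 in the authors' deposited table (adjusted p = 0.99). ERBB2 stood at 2055 and 1796, and the authors' deposited table gave -0.19 with an SE of 0.23 (adjusted p = 0.974). ERBB3 stood at 184 and 183, and the authors' deposited table gave -0.01 with an SE of 0.34 (adjusted p = 0.999). TGFA stood at 837 and 810, and EREG at 155 and 130, computed from the authors' deposited table. For EGFR the interval with a6 ran from 0.64-fold to 1.25-fold and for TGFA from 0.71-fold to 1.32-fold. A 2-fold change of either gene, up or down, lies outside its interval.

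CDKN1A, the cell cycle inhibitor that HDAC inhibitors are known to raise, gives a scale for these values. In the authors' deposited table its log2 fold change was 1.26 with an SE of 0.34 with SAHA, 0.29 with 0.50 with compound 1 and 0.74 with 0.30 with a6. Only the first passed (adjusted p = 0.00666, 1.0 and 0.436).

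AREG was set apart by its error. In the authors' deposited table the SE of its log2 fold change was 0.44 with SAHA, 0.96 with compound 1 and 0.71 with a6. The median SE of genes of like level in the same deposited tables of the authors was 0.28, 0.25 and 0.23. The AREG value was thus 1.55, 3.82 and 3.03 times the median. Of the other genes of like level, 2 in each comparison had a larger SE, out of 1153 with SAHA, 1636 with compound 1 and 1720 with a6. Its levels, computed from the authors' deposited table, were 1769 in Ctrl and 1546 with compound 1, and 1732 in Ctrl and 1360 with a6.

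EREG, the neighbour of AREG, had an SE inside the usual range of its level: 24.5% of such genes had a smaller one with SAHA, 75.5% with compound 1 and 54.4% with a6. EREG thus did not share the large SE of AREG. Whether 1 library decides the AREG values was not tested, since the tables hold means. With SAHA, EGFR had the largest SE for its level after AREG, where 90.9% of like genes had a smaller one, and 55.3% and 72.5% did with compound 1 and a6.

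**Figure D3:**
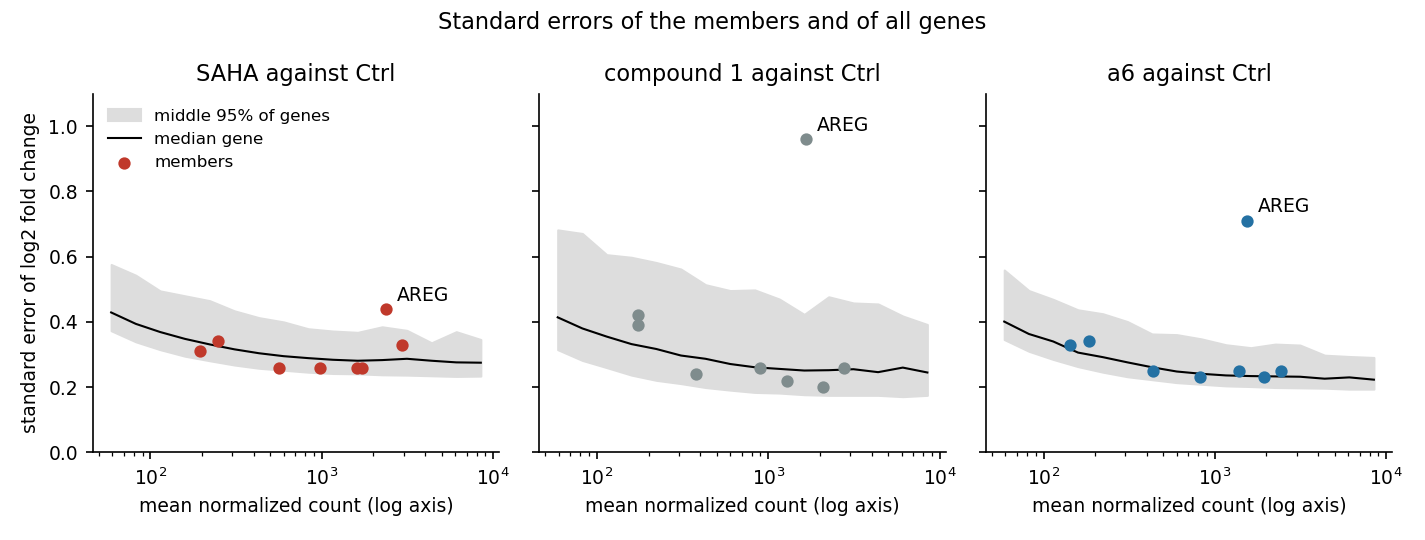
Standard error of the log2 fold change against the mean normalized count (log axis) for the 8 genes (points), with the median (line) and the middle 95% (grey band) of all genes in bins of mean count. AREG lies above the band in all 3 panels, at 0.44, 0.96 and 0.71, and the other 7 genes lie within or at the edge of it.

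The compounds were next compared with each other at the same dose and time, as 24 differences of log2 fold changes (8 genes, 3 pairs), with a two-sided z test and adjustment over all genes in both tables. None of the 24 passed when the errors of the 2 comparisons were taken as independent. The share of all genes called was 0.256% for a6 minus SAHA, 0.0328% for a6 minus compound 1 and 1.06% for SAHA minus compound 1. The 2 comparisons of each pair share the Ctrl libraries. With an error correlation of 0.5 to stand for them, 3.54%, 0.289% and 5.33% of all genes were called, and 1 of the 24 member differences.

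That difference was NRG1 between SAHA and compound 1. SAHA minus compound 1 was 0.99 with an SE of 0.35 and a 95% interval of 0.30 to 1.67 (z test, adjusted p = 0.219). With the error correlation of 0.5 the SE was 0.25, the interval 0.50 to 1.47 and the adjusted p = 0.00344. So NRG1 passed only with the correlation taken into account, with fold changes of 1.04 and 0.05 on the log2 scale. ERBB2 differed between the same compounds by -0.65 with an interval of -1.29 to -0.01 (adjusted p = 0.673, and adjusted p = 0.0814 with the correlation of 0.5), and ERBB3 by 0.94 with -0.08 to 1.96 (adjusted p = 0.756, and adjusted p = 0.122 with the correlation).

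Between a6 and SAHA, NRG1 was 0.55 lower with a6, at a difference of -0.55 with an SE of 0.36 and an interval of -1.25 to 0.15 (z test, adjusted p = 1.0). The HBEGF difference was -0.30 with an SE of 0.36 and an upper bound of 0.40 (adjusted p = 1.0). EREG had the smallest p among the 8, with a6 minus SAHA of -0.80 and an interval of -1.68 to 0.08 (adjusted p = 0.981, and adjusted p = 0.16 with the correlation of 0.5). In this pair 7 of the 8 differences were below 0 and ERBB2 alone was above, at 0.47 with -0.22 to 1.15. A gene past the threshold with SAHA and not with a6 is thus not shown to differ between them.

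Between a6 and compound 1 the differences were from -0.50 for EREG to 0.44 for NRG1. The NRG1 interval was -0.24 to 1.11 and the HBEGF interval, around 0.22, was -0.42 to 0.87 (z test, adjusted p = 1.0 for both). The AREG difference of -0.15 had an interval of -2.50 to 2.19, the widest of the 24. None of these intervals shows that 2 compounds act alike on a gene.

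**Figure D4:**
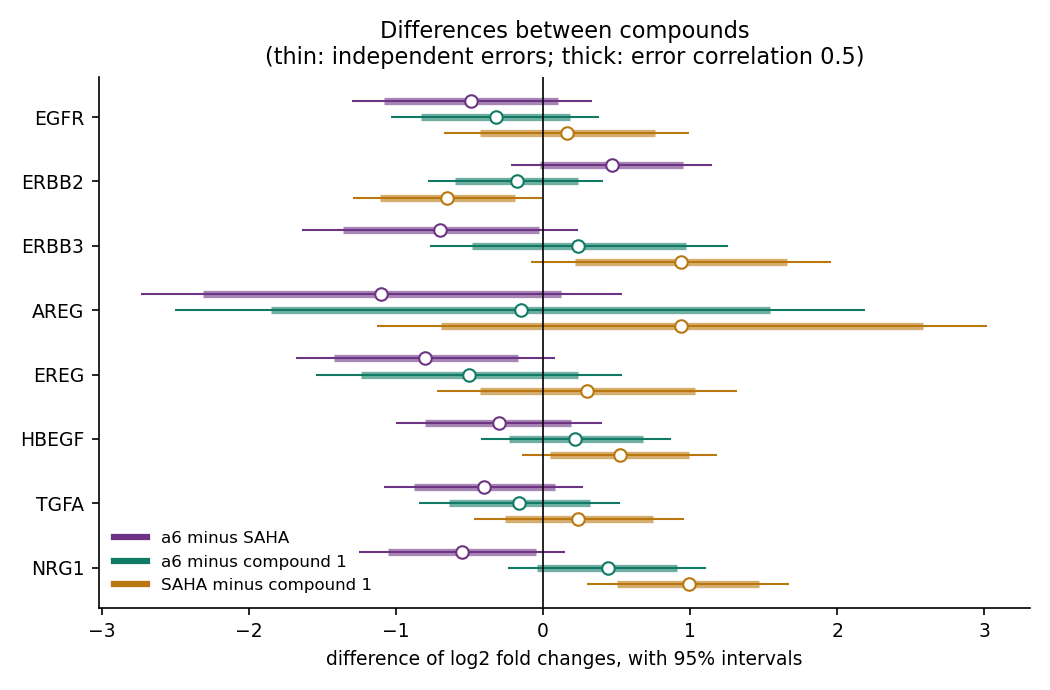
Difference of log2 fold changes between each pair of compounds for the 8 genes, with 95% intervals for independent errors (thin) and for an error correlation of 0.5 (thick). The NRG1 interval for SAHA minus compound 1, at 0.30 to 1.67, lies wholly above 0 and the ERBB2 one, at -1.29 to -0.01, wholly below 0; neither passed adjustment over all genes with independent errors.

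The family's other members were at low counts or had no row. ERBB4, the fourth receptor, was measured with compound 1 only, with an average of 0.172 normalized counts in the authors' deposited table. NRG3 and NRG4 were likewise measured there alone, at 0.145 and 2.05 in the authors' deposited table, and EPGN had no row in any table. EGF, the ligand that named the family, had mean counts of 15.5, 16.2 and 13.0 in the authors' deposited table. NRG2 had 22.7, 13.0 and 13.4 in the authors' deposited table. Each of these is a mean over Ctrl and compound libraries together, for SAHA, compound 1 and a6 in turn. With SAHA, NRG2 was at a log2 fold change of 1.06 with an SE of 0.57 in the authors' deposited table (adjusted p = 0.317). None of them passed in any comparison.

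BTC, betacellulin, another ligand of EGFR and ERBB4, was the one family gene with an unadjusted p under 0.05 with compound 1. It stood at 2.51 normalized counts in Ctrl and 11.6 with compound 1, with a log2 fold change of 2.21 and an SE of 1.02 in the authors' deposited table (unadjusted p = 0.0298, adjusted p = 1.0). With SAHA it was at 0.91 with an SE of 1.34 in the authors' deposited table, and it had no row with a6, whose lowest mean count was 9.31. At counts this low the size of the change is poorly set: the interval with compound 1 ran from 0.22 to 4.20 on the log2 scale.

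In all, 6 lists of pathway genes were read beside the members, among them the other family genes above, with 74 genes together. With SAHA 68 of the 74 were measured, of which 2 were raised and 2 lowered, with a median log2 fold change of -0.12. These 2 raised and 2 lowered in 68 lie near the shares of all genes, 4.53% raised and 3.02% lowered. The same shares apply to the single calls in each list below, and no list was tested as a set. With compound 1 and a6, none of the 72 and 66 measured genes passed. Lists and members were chosen with earlier results of these data known.

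Among the genes of ligand shedding, 1 of 8 measured rose with SAHA and none fell, with a median of -0.21. The gene that rose was ADAM12, a metalloprotease that can cut HBEGF loose, from 27.6 to 68.9 normalized counts, with a log2 fold change of 1.32 and an SE of 0.42 in the authors' deposited table (adjusted p = 0.0299). Of the adaptors and the RAS-MAPK cascade, 0 of 16 passed, with values from -0.55 for MAPK3 to 0.21. In the PI3K-AKT arm 1 of 9 fell: AKT1, the kinase at its centre, from 6859 to 3792, at -0.85 with an SE of 0.29 in the authors' deposited table (adjusted p = 0.0426). That call was lost when the AKT1 value was corrected for a trend on GC content (-0.63, Wald test, adjusted p = 0.211), after centring (adjusted p = 0.0693) and with adjustment over the genes of any table (adjusted p = 0.0624).

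Of 21 negative regulators, which switch off the receptors or the MAPK cascade, 0 passed with SAHA, and their median was 0.01. Their values ran from -0.66 for LRIG1, which promotes loss of EGFR family receptors, to 1.29 for CBLC, a ubiquitin ligase. Of 15 genes known as targets of the ERK pathway, 1 rose and 1 fell with SAHA, with a median of -0.15. EPHA4, an ephrin receptor, rose from 25.6 to 94.4, at 1.89 with an SE of 0.43 in the authors' deposited table (adjusted p = 0.000625). FOSL1, an AP-1 factor, fell from 8647 to 4622, at -0.90 with an SE of 0.28 in the authors' deposited table (adjusted p = 0.0244). With the GC trend removed FOSL1 was at -0.72 and no longer passed (Wald test, adjusted p = 0.114). Of the 15 targets, 4 were above 0 with SAHA and the others below, beside 9138 of all 18534 genes above 0. SPRY2, SPRY4, DUSP4 and DUSP6 are in both this list and that of the negative regulators, so the lists are not separate observations.

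With a6 the medians of these lists lay between -0.13 and 0.06, with the other family genes left aside. ERRFI1, an inhibitor that binds EGFR, was the lowest of the negative regulators, at -0.70 with an SE of 0.34 in the authors' deposited table (adjusted p = 0.638). With compound 1 they lay between -0.01 and 0.15.

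**Figure D5:**
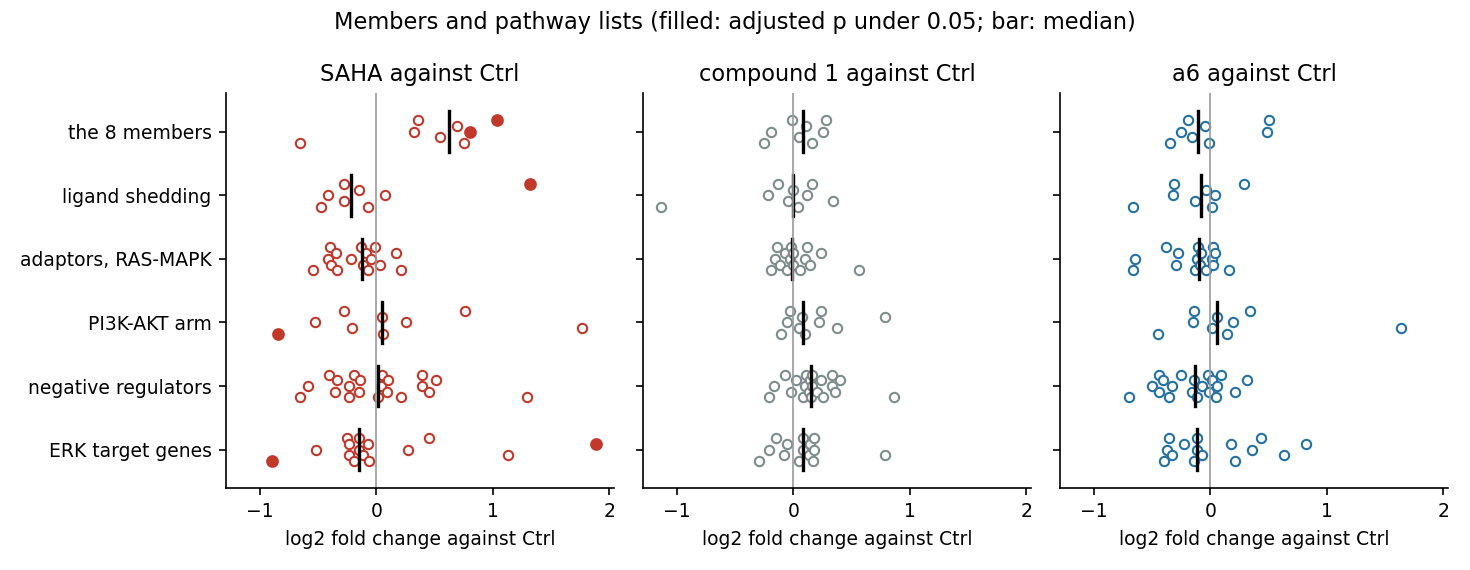
Log2 fold change against Ctrl of the 8 members and of 5 pathway lists in each comparison, 1 point per gene, with the list's median as a bar; filled points have an adjusted p under 0.05. With SAHA the members' median is 0.62 and those of the lists lie from -0.21 to 0.05; filled points appear with SAHA alone.

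The genes most like HBEGF and NRG1 were found by the Euclidean distance between their 3 log2 fold changes, over the genes that averaged 50 normalized counts or more in all tables. HBEGF was nearest to CHST11, a sulfotransferase of chondroitin, at a distance of 0.058, then to OGFRL1 at 0.064 and DBT at 0.067. CHST11 was at 0.79, 0.23 and 0.47 with SAHA, compound 1 and a6 in the authors' deposited table. NRG1 was nearest to CHRNA5, a nicotinic receptor subunit, at 0.067, then to RIDA at 0.070 and TPM1, a tropomyosin, at 0.074. TPM1 was at 1.07, 0.09 and 0.55 in the authors' deposited table. These are likenesses over 3 values that share their Ctrl libraries. The distances are smaller than the SE of any of these values, so the order of the genes is not set. With SAHA, CHRNA5, OGFRL1 and DBT did not pass (Wald test, adjusted p = 0.0896, 0.0944 and 0.265).

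Markers of other cells were read beside the SAHA result. The summed level of the epithelial markers, of which 5 of 8 were measured, was 7380 in Ctrl and 13100 with SAHA, with KRT19 the most abundant and none of them past the test, and that of the endothelial markers, of which 3 of 4 were measured and 2 passed, 46.9 and 154. Of the haematopoietic markers, CD14 was measured at 28.2 and 99.3 and passed, while PTPRC, CD3E and HBB had no row. The fibroblast markers, of which 4 of 5 were measured and 1 passed, summed to 666 and 870. The haematopoietic sum rests on CD14 in each table, and the fibroblast sum on the same genes with SAHA and compound 1. Otherwise the sums rest on different genes in each table and are not comparable between compounds. With compound 1 they went from 7360 to 6200 for 7 of 8 epithelial markers, from 47.2 to 91.1 for 4 of 4 endothelial markers, from 28.2 to 18.9 for CD14 and from 664 to 598 for 4 of 5 fibroblast markers. With a6 they went from 7210 to 6830 for 4 of 8 epithelial markers, from 40.7 to 44.7 for KDR alone, from 27.6 to 18.5 for CD14 and from 650 to 518 for 3 of 5 fibroblast markers, of which 1 passed. These sums were computed from the authors' deposited table. The part of any such change in the values of NRG1 and HBEGF was not tested.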

How the data were processed

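Total RNA of MDA-MB-231 was sequenced in 12 libraries, 3 in each of 4 groups. Per the submitters' processing notes, cutadapt, DESeq2 and GRCh38 (hg38) were used; aligner, counter, versions and strand use: not given in the sources used here. Per the file headers, each of the 3 deposited comparison tables holds the mean normalized count per gene (a signal), the log2 fold change with its standard error, the Wald statistic (a score) and the p-value before and after adjustment. Recomputing the statistic, the p-value and the adjustment from the deposited columns gave 0 mismatches. The number of G4s (a score) comes from lists deposited by the authors. The 6 lists of changed genes were not used, and 0 columns of values per library.

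A group's level was computed from the deposited mean and fold change, taking both groups as equal in size. Between tables the Ctrl levels differed by a constant shift, with a standard deviation of at most 0.00326 around it on the log2 scale. For a difference between compounds, the variances of both fold changes were summed. The adjustment of the Wald test and the difference test were run on simulated fold changes. Their errors were drawn from the deposited SEs, so that run cannot show whether those SEs are right. Positions and lengths come from GENCODE 29, promoters from RefSeq. The work used Python 3.11.15, scipy 1.17.1 and statsmodels 0.14.6.

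The 8 members, the gene lists and the tests were chosen with earlier results of these data known. Named are the 8 members, the pathway genes that passed, the other family genes, the 3 genes nearest to each member that passed, and CDKN1A; genes at the ends of a list's range, overlapping genes and markers were named after their values were seen. Alternatives were other thresholds, adjustment over the genes of any table, a minimum of 50 normalized counts, centring on the median, removal of a lowess trend on GC content (share 0.3) and an error correlation of 0.5.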

Additional observations from a re-analysis of the deposited data

How the results depend on the processing

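NRG1 kept its call with SAHA under every alternative run. HBEGF lost it at an adjusted p under 0.01 and under the 2-fold limit, with either p, so that 1 of the 8 genes, in place of 2, was called under each of these 3 settings. Across the deposited values and the alternatives in adjustment, count minimum, centring and GC content, the adjusted p of the Wald test ran from 0.0162 to 0.0448 for HBEGF and from 0.000844 to 0.00545 for NRG1. Of the other genes called with SAHA, EPHA4 and CDKN1A kept their calls under every alternative run, ADAM12 lost its own at 0.01 and averaged under the minimum of 50, and AKT1 and FOSL1 lost theirs at 0.01, under the 2-fold limit and with the GC trend removed, AKT1 also after centring and with adjustment over the genes of any table. With an error correlation of 0.5, 1 of 8 differences was called for SAHA minus compound 1, in place of 0. Removing the GC trend moved ERBB2 to 0.018 and NRG1 to -0.062 with compound 1, and centring moved ERBB3 to 0.023 with a6; none of these 3 values passed the test on either side. Without a sign change, removing the GC trend moved values with compound 1 by over 1.5 times for EREG (0.252 to 0.111), EGFR (0.16 to 0.073), TGFA (0.113 to 0.008) and AREG (-0.195 to -0.302), and with a6 for EREG (-0.248 to -0.111) and ERBB3 (-0.008 to -0.005). Centring did so for ERBB2 with compound 1 (-0.013 to -0.025) and TGFA with a6 (-0.047 to -0.016). The cause of these changes was not tested.

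Counts over all genes moved more. With a6, 89 genes were called as deposited, 36 at an adjusted p under 0.01, 56 with adjustment over the genes of any table and 398 at an unadjusted p under 0.05 and 2-fold; that rule gave 43 with compound 1 in place of 0. With SAHA 1399 became 820 at 0.01, and 60.0% higher calls became 70.0% with the GC trend removed and 46.1% at a mean count of at least 50. Differences went from 39 to 540 for a6 minus SAHA, 5 to 44 for a6 minus compound 1 and 197 to 987 for SAHA minus compound 1 with the error correlation, and to 16, 3 and 87 at 0.01. By exon union length, chosen after seeing the data, ERBB3 stood at 25.4 and NRG1 at 40.2 per kb. No paired analysis was possible because the tables hold no value per library, and for the same reason no library could be left out. Depth per library is unknown here.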
